A study of Mus musculus with 4 samples.

Results

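The Gimap genes encode the GTPases of immunity-associated proteins, a family of GTP-binding proteins found mainly in lymphocytes, where several members act on the survival of resting cells. In mice and rats, loss of *Gimap5* leads to a shortage of T cells, and in mice loss of *Gimap1* removes most mature T and B cells. The proteins share a GTP-binding domain, and several sit on the membranes of organelles. Expression of the family is known to increase as thymocytes mature, so early T cell progenitors (ETP), the first T lineage stage in the thymus, lie at the low end of that course.

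The 8 *Gimap* genes listed in the deposited gene table, *Gimap1*, *Gimap3*, *Gimap4*, *Gimap5*, *Gimap6*, *Gimap7*, *Gimap8* and *Gimap9*, were chosen by their symbols out of 23361 genes. They were described in 4 RNA-seq libraries of sorted ETP, 2 from old mice at 72 weeks of age and 2 from young mice at 4 to 6 weeks. All donors were female, the strain is labelled C57BL6, and no treatment or genetic change is given for either age. The sort took thymocytes that were Lin-, CD44+, CD25- and CD117+, and the cells were lysed straight after it. The table names the old condition 20m, which, if read as months, would be an older age than the 72 weeks labelled. It also numbers the libraries of each age 0 and 1. Replicates 1 and 2 stand for these numbers below. How many mice went into a library, and whether the replicates came from separate mice, is not labelled. P-values are thus set by the spread among 4 libraries, part of which may be technical.

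The libraries held 11816478 and 4839341 fragments in old ETP and 16658864 and 6414915 fragments in young ETP (replicates 1 and 2), so replicate 1 was the deeper library of each age. Levels are given as CPM, fragments relative to library size after TMM scaling, where a count of 0 would allow up to 3 fragments, or 0.174 to 0.646 CPM. *Kit*, which encodes the sorting marker CD117, was at 929 and 933 CPM in old ETP and at 758 and 1086 CPM in young ETP. *Notch1*, from the same list of 6 ETP genes, was lower in both old libraries. It was at 955 and 570 CPM in old ETP and at 1264 and 1193 CPM in young ETP. Of the 6 genes, 4 had a positive and 2 a negative log2 fold change (old over young, edgeR). Of 10080 genes with an FPKM (fragments scaled by transcript length and library size) of at least 1 in at least 2 libraries, 0 passed edgeR's quasi-likelihood test at an adjusted p of 0.05 in either direction. At an unadjusted p of 0.05, 469 were higher and 92 lower in old ETP, and DESeq2 called 210 higher and 15 lower.

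All 8 genes lie side by side on mouse chromosome 6, at chr6:48647234-48770851 in GRCm38 (GENCODE M21), a span of 123618 bases. Their order is *Gimap8*, *Gimap9*, *Gimap4*, *Gimap6*, *Gimap7*, *Gimap1*, *Gimap5* and *Gimap3*, with *Gimap6* and *Gimap3* on the minus strand. The coding sequences shown here are the stretch of each gene for the GTP-binding loop (P-loop), the feature the family shares. It consists of a glycine codon, 4 codons that the P-loop pattern leaves free, and the codons for glycine, lysine and serine, which are in capitals. In all loops shown, the codon before the last of these 4 also encodes glycine. Each sequence runs 5′ to 3′ along the coding strand and was read from GRCm38.
Gimap1: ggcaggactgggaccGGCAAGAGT
Gimap3: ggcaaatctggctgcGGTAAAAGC
Gimap4: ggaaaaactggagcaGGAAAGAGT
Gimap5: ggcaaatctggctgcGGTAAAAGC
Gimap6: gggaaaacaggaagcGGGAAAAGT
Gimap7: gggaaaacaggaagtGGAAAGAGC
Gimap8, loop 1: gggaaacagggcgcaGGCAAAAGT
Gimap8, loop 2: gggaagcgtggtgttGGGAAAAGT
Gimap8, loop 3: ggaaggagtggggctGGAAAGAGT
Gimap9: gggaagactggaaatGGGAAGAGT
*Gimap8* has 3 loops within 2067 coding bases, while the other members have 1 each within 876 to 987 coding bases. The loops of *Gimap3* and *Gimap5* are identical over all 24 bases, and the coding sequences of these neighbours matched at 88.8% of 902 aligned bases. As a share of the longer coding sequence of a pair, matches came to 86.4% for *Gimap3* and *Gimap5* and, next, to 64.6% for *Gimap7* and *Gimap9*. Over the aligned stretch alone, *Gimap7* matched *Gimap8* at 73.3% of 865 bases.

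Alike sequence could move fragments between genes, so the members were compared over windows of 100 bases. Only 1.65% of the windows of *Gimap3* recurred in *Gimap5*, and 0.966% of those of *Gimap5* recurred in *Gimap3*. *Gimap4*, *Gimap6*, *Gimap7*, *Gimap8* and *Gimap9* shared 0 windows with other annotated genes. *Gimap1* is the least certain member, because 36% of its exonic bases lie opposite the antisense gene *Gimap1os*. That gene has no row in the table, and use of strand in counting is not stated in the methods or labels. The libraries were made from cDNA with a kit for DNA, so fragments of *Gimap1os* may be counted for *Gimap1*. A read-through gene, *Gm28053*, covers 3.5% of the exonic bases of *Gimap7*, 6.4% of those of *Gimap1* and 3.7% of those of *Gimap5* on the same strand.

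*Gimap3* and *Gimap4* had higher levels in both old libraries than in both young ones, while the other 6 members had lower estimates in old ETP. Over all genes tested, 46.6% had a positive log2 fold change. No member passed edgeR, the unadjusted p was under 0.05 in 2, and DESeq2 called 1. The median log2 fold change (old over young) was -0.45 over the 8 members, against -0.03 over all genes tested. All 8 members passed the FPKM filter, *Gimap3* only through its old libraries and *Gimap8* only through its young ones. Both old libraries lay above both young ones in 2 members and below them in 2, against 16% and 15.7% of all genes tested.

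**Figure D1:**
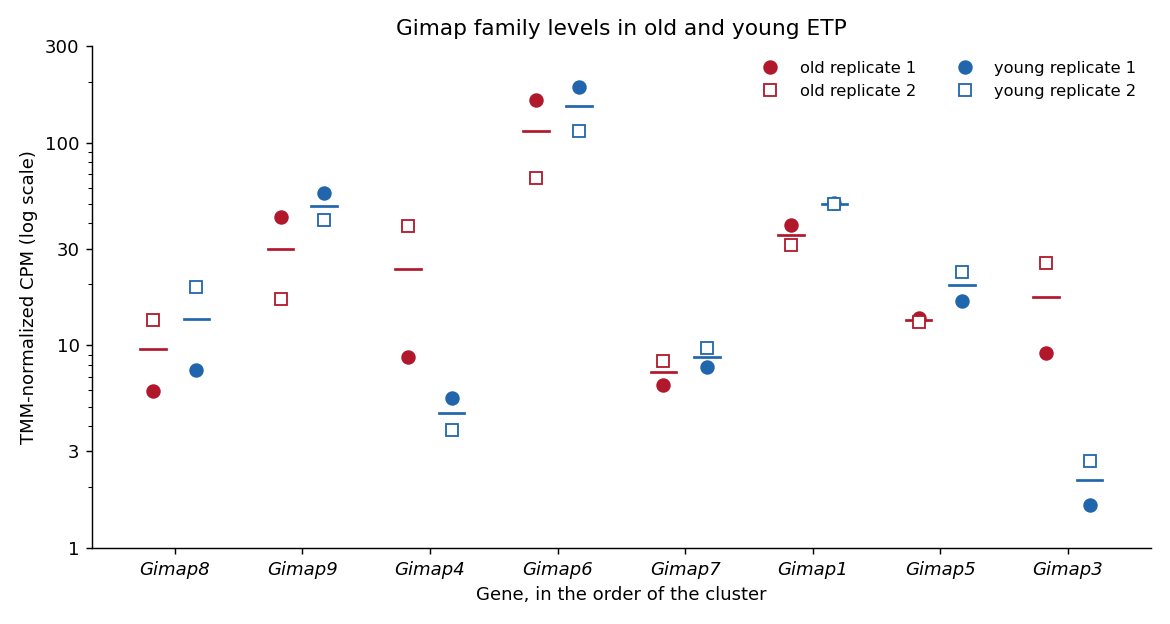
TMM-normalized CPM (log scale) of each Gimap gene in the order of the cluster, with old libraries on the left of each pair, filled circles for replicate 1, open squares for replicate 2 and bars for means. *Gimap3* at 9.16 and 25.6 CPM in old ETP stands clear of 1.63 and 2.70 CPM in young ETP, and *Gimap6* is the highest member in each library.

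*Gimap3* encodes a relative of GIMAP5 that ends in a membrane anchor and in mice affects how mitochondrial DNA variants segregate in blood cells. It is at chr6:48764464-48770851 on the minus strand. It had 111 and 119 fragments in old ETP and 28 and 17 fragments in young ETP, although the young libraries were the deeper of each number. Scaled for depth, these were 9.16 and 25.6 CPM in old ETP, against 1.63 and 2.70 CPM in young ETP. The lower old library was thus above the higher young library, and the old libraries differed among themselves more than the young ones. The mean was 17.4 ± 11.6 CPM in old ETP and 2.16 ± 0.758 CPM in young ETP (SD, n = 2 libraries each), an 8.04-fold ratio. edgeR gave a log2 fold change of 3.03 (SE 0.67) with an unadjusted p of 0.00491 and an adjusted p of 0.379. This was rank 129 by p among the genes tested, and 1.18% of them had a log2 fold change as large. DESeq2 called *Gimap3* higher in old ETP, with a log2 fold change of 3.05 (SE 0.71) and an adjusted p of 0.00130. It called 2.08% of all genes higher and 0.149% lower. Because *Gimap3* passed the FPKM filter only through its old libraries, the filter itself favoured the direction reported. Its rank and share among the genes tested are thus descriptive.

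*Gimap4* encodes a protein that, in mice, speeds the death of T cells after an apoptotic signal. It is at chr6:48684549-48692060 on the plus strand and has 6 annotated transcripts. It had 106 and 181 fragments in old ETP and 95 and 24 fragments in young ETP. These were 8.74 and 38.9 CPM in old ETP and 5.52 and 3.81 CPM in young ETP. The groups did not overlap, but old replicate 1 lay much nearer to the young libraries than to old replicate 2. The mean was 23.8 ± 21.4 CPM in old ETP and 4.66 ± 1.21 CPM in young ETP (SD, n = 2 libraries each). The log2 fold change by edgeR was 2.32 (SE 0.77), with an unadjusted p of 0.0257 and an adjusted p of 0.715, and DESeq2 gave 2.36 (SE 0.75) with an adjusted p of 0.0705. A fold change of this size or larger was found for 1.78% of the genes tested. *Gimap3* and *Gimap4* were the only members with an unadjusted p under 0.05 by edgeR, where 4.65% of all genes passed as higher and 0.913% as lower in old ETP.

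Single libraries weighed heavily on both genes. For *Gimap4* the log2 fold change was 0.86 without old replicate 2, and for *Gimap3* it was 2.09. In a fit without old replicate 1 they were 3.08 and 3.65, and edgeR called both (adjusted p of 0.0185 and 0.0163) where it called 2.16% of all genes higher and 0.0298% lower. The lone old library is then assumed to vary as the young ones do. edgeR also called both when no filter on low values was set (adjusted p of 3.9e-04 for *Gimap4* and 1.4e-05 for *Gimap3*), where 2.77% of all genes were called higher and 0.199% lower in old ETP. With the replicate number as a term it again called both, and then 5.73% of all genes were called higher and 1.97% lower.

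**Figure D2:**
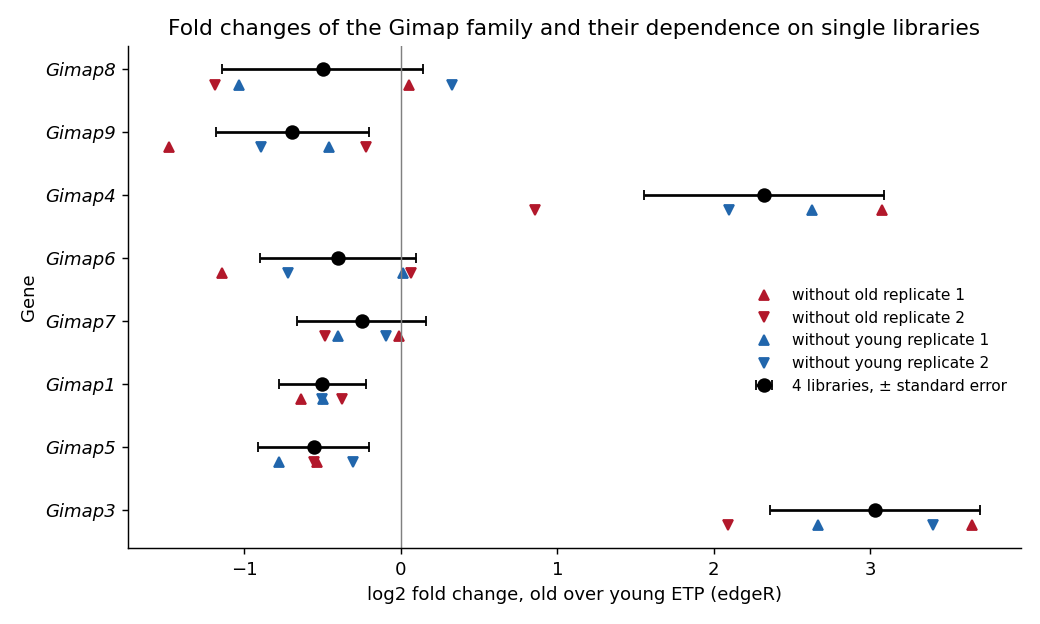
log2 fold change of old over young ETP by edgeR for each member, with black points and bars for the estimate ± SE over 4 libraries and triangles for fits that leave out a single library. *Gimap3* stays between 2.09 and 3.65 and *Gimap4* between 0.86 and 3.08, while *Gimap6* and *Gimap8* cross 0.

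*Gimap6* and *Gimap9* followed each other across the libraries. *Gimap6*, whose product takes part in autophagy in T cells of mice, had 1963 and 310 fragments in old ETP and 3256 and 716 fragments in young ETP. These correspond to 162 and 66.7 CPM in old ETP and 189 and 114 CPM in young ETP, so the ages overlapped and replicate 1 was the higher library of each. The log2 fold change was -0.40 (SE 0.50, adjusted p by edgeR = 0.999). *Gimap9* was at 42.9 and 17 CPM in old ETP and at 56.2 and 41.4 CPM in young ETP, again with replicate 1 higher and with overlapping ages. Its log2 fold change was -0.69 (SE 0.49). Both values rested on single libraries. Without old replicate 2 they were 0.063 for *Gimap6* and -0.22 for *Gimap9*, and without old replicate 1 they were -1.15 and -1.48.

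*Gimap1* and *Gimap5* were lower in both old libraries than in both young ones. *Gimap1*, the member that mature lymphocytes of mice cannot do without, was at 39.2 and 31.2 CPM in old ETP and at 50.2 and 49.8 CPM in young ETP. The log2 fold change was -0.50 (SE 0.28), with an unadjusted p of 0.125 and an adjusted p of 0.999 by edgeR. *Gimap5*, whose product is a membrane protein needed for the survival of T cells, was at 13.6 and 13.1 CPM in old ETP and at 16.6 and 23.0 CPM in young ETP. Its log2 fold change was -0.56 (SE 0.35, unadjusted p by edgeR = 0.171). The young libraries of *Gimap5* lay further apart than the old ones, and in neither gene did the difference pass the test. Without young replicate 2 the log2 fold change of *Gimap5* was -0.30.

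*Gimap7* and *Gimap8* also overlapped between ages. *Gimap7*, whose human counterpart pairs with other GIMAP proteins and speeds their GTP hydrolysis, was at 6.35 and 8.39 CPM in old ETP and at 7.84 and 9.68 CPM in young ETP, with a log2 fold change of -0.25 (SE 0.41). *Gimap8*, the member with several GTP-binding domains, was at 5.94 and 13.3 CPM in old ETP and at 7.61 and 19.5 CPM in young ETP, with a log2 fold change of -0.50 (SE 0.64). In both genes replicate 2 was the higher library of each age, unlike in *Gimap6* and *Gimap9*. Without old replicate 2 the log2 fold changes were -0.48 for *Gimap7* and -1.19 for *Gimap8*, and without young replicate 2 they were -0.094 and 0.33.

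Because the replicates of each age differed in depth, each old library was also set beside the young library of like rank in depth, a comparison chosen after the values were seen. *Gimap3* was 5.63-fold higher in the old library of the deeper pair and 9.49-fold higher in that of the shallower pair. The corresponding ratios of *Gimap4* were 1.58 and 10.2. The other 6 members had ratios of old to young from 0.763 to 0.856 in the deeper pair and from 0.410 to 0.867 in the shallower pair. Thus 2 members were higher and 6 lower in old ETP in both pairs, where 30.6% of all genes tested were higher in both and 36.6% lower in both.

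The summed level of the family overlapped between ages. That of the 8 members was 287.8 and 214.3 CPM in old ETP and 334.7 and 263.6 CPM in young ETP (exact permutation test, two-sided, p = 0.667). It was lower in old ETP within both the deeper and the shallower pair. Without *Gimap3* and *Gimap4* the sum was 269.9 and 149.8 CPM in old ETP and 327.6 and 257.1 CPM in young ETP (exact permutation p = 0.667). With 2 libraries per age the smallest p that this test allows is 0.333. The make-up of the sum did differ between libraries. *Gimap3* took 3.18% (95% Wilson interval 2.65 to 3.82) and 11.9% (10.1 to 14.1) of the family's 3489 and 996 fragments in old ETP. In young ETP it took 0.486% (0.336 to 0.701) and 1.02% (0.640 to 1.63) of 5762 and 1661. The share of *Gimap4* was 3.04% (2.52 to 3.66) and 18.2% (15.9 to 20.7) in old ETP, against 1.65% (1.35 to 2.01) and 1.44% (0.973 to 2.14) in young ETP. For both genes the old shares lay above the young ones, at the smallest p the exact permutation test allows (0.333). These 2 genes were singled out for their higher levels in old ETP, so their shares restate that difference and add no separate evidence. The share of *Gimap6* overlapped between ages, at 56.3% and 31.1% in old ETP and 56.5% and 43.1% in young ETP (exact permutation p = 0.667). The intervals cover counting error only, since PCR copies of a molecule cannot be told from further molecules.

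**Figure D3:**
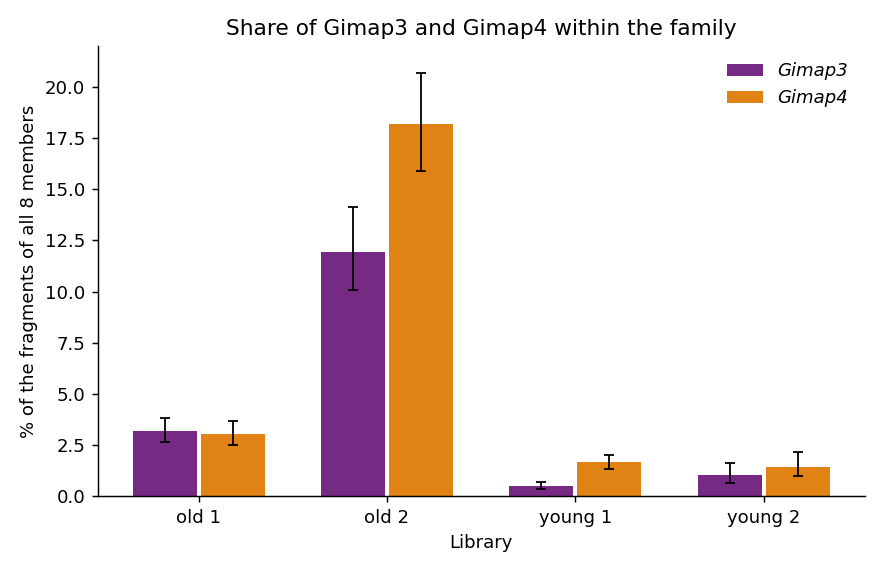
Share of the fragments of all 8 members that belonged to *Gimap3* or *Gimap4* in each library, as percent with 95% Wilson intervals for counting error. Together they made up 6.22% and 30.1% in old ETP and 2.13% and 2.47% in young ETP.

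Levels of different members can be compared only per length, which the deposited FPKM allow within a library. *Gimap6* was the highest member in all 4 libraries, at 44.8 and 11.5 FPKM in old ETP and 65.7 and 23.4 FPKM in young ETP. *Gimap9* and *Gimap1* came next in 3 of the 4 libraries. In old replicate 2, *Gimap4* at 6.45 FPKM stood between *Gimap6* and *Gimap1* at 5.83 FPKM. *Gimap3* was the lowest member of both young libraries, at 0.407 and 0.403 FPKM, whereas in the old libraries it was above *Gimap8*, at 1.83 and 3.21 FPKM. In both young libraries *Gimap6* led and *Gimap5*, *Gimap7* and *Gimap3* held ranks 4, 5 and 8, while *Gimap9* and *Gimap1*, and likewise *Gimap4* and *Gimap8*, changed places. In both old libraries *Gimap6*, *Gimap1*, *Gimap7* and *Gimap8* held ranks 1, 3, 6 and 8, and the other members changed places.

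The ratio of FPKM of *Gimap3* to its close relative *Gimap5* was 0.602 and 1.75 in old ETP and 0.0878 and 0.105 in young ETP. The ratio of *Gimap4* to *Gimap6* was 0.0693 and 0.560 in old ETP and 0.0301 and 0.0381 in young ETP. Old replicate 2 was the highest library in both ratios, and both old libraries lay above both young ones. The exact permutation p was 0.333 for each, the smallest the test allows. Their numerators are the members with higher levels in old ETP, so these ratios restate that difference and add no separate evidence. The ratio of *Gimap9* to *Gimap6* separated the ages the other way at the same p, at 0.318 and 0.304 in old ETP and 0.357 and 0.435 in young ETP. That of *Gimap1* to *Gimap6* overlapped between ages, at 0.262 and 0.506 in old ETP and 0.289 and 0.475 in young ETP. *Gimap4* has a further limit on this scale, because its FPKM per fragment varied 1.35-fold between libraries, against 1.005 to 1.024-fold in the other members. For this, the common factor of each library was first divided out, taken as the median over 9539 genes with at least 20 fragments in every library. CPM do not carry that factor.

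Across the cluster, the 2 genes with higher levels in old ETP did not lie next to each other. *Gimap4* stands between *Gimap9* and *Gimap6*, and *Gimap3* ends the cluster beyond *Gimap5*. Outside the cluster, *Repin1*, which encodes a zinc finger protein, was at 51.6 and 37.7 CPM in old ETP and at 65.2 and 57.8 CPM in young ETP, with a log2 fold change of -0.46. *Tmem176b* and *Tmem176a*, which encode related membrane proteins, had log2 fold changes of -0.20 and -0.16. *Zfp775* and *AI854703* were under the FPKM filter, and *1600015I10Rik* and *Doxl2* had 0 fragments in each library. No flanking gene passed edgeR, where all 3 tested had an adjusted p of 0.999.

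**Figure D4:**
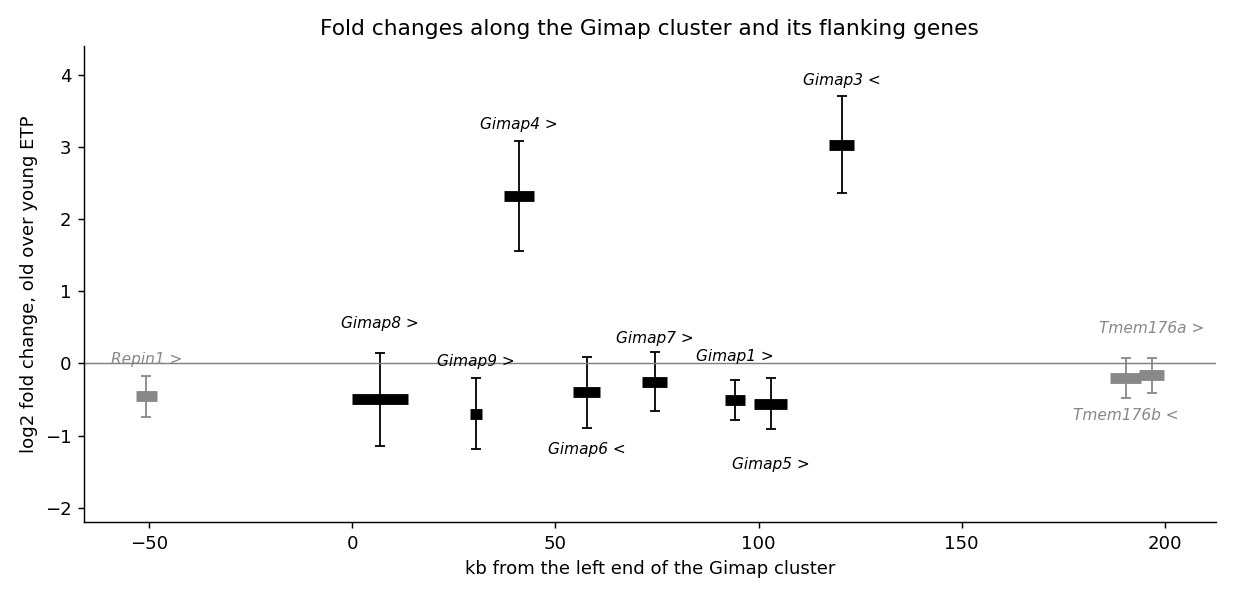
log2 fold change of old over young ETP ± SE (edgeR) against distance in kb from the left end of the cluster, with each bar as long as its gene, arrows for the strand, Gimap genes in black and flanking genes in gray. *Gimap4* at 2.32 and *Gimap3* at 3.03 stand above their neighbours, which lie between -0.69 and -0.16.

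Upstream sequence is shown for *Gimap3* and *Gimap4*, which had higher levels in old ETP, and for *Gimap6*, the most abundant member. Each ends at the base before the annotated start, runs 5′ to 3′ in the direction of transcription and comes from RefSeq (GRCm38.p6). Capitals mark matches, on either strand, to the letters GTAAACA (Foxo factors), TGTGGT (Runx factors) and GGAAGT (Ets factors).
Gimap3, chr6:48770852-48771101, minus strand: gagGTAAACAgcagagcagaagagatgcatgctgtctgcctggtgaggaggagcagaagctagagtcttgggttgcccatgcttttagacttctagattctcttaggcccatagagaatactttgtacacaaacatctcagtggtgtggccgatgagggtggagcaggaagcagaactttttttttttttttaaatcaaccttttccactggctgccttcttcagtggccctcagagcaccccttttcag
Gimap4, chr6:48684328-48684548, plus strand: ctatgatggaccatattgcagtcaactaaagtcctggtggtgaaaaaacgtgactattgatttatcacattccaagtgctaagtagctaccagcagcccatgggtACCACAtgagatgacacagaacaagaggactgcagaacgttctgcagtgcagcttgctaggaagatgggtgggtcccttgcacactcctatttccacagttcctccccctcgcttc
Gimap6, chr6:48708245-48708494, minus strand: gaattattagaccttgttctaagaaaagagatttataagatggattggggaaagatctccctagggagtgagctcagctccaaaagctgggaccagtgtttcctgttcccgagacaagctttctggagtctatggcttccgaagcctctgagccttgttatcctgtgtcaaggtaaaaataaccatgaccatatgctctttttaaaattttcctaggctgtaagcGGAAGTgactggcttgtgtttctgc
Promoter windows for the count of matches reach further, from 250 bases before to 50 bases past the start. Among 9 such windows of the members, GTAAACA occurred in that of *Gimap3*, 247 bases before its start, and in 3.65% of all 32851 promoter windows. TGTGGT occurred in windows of *Gimap1*, *Gimap4* and *Gimap7*, against 16.8% of all promoters, and GGAAGT in those of *Gimap1*, *Gimap5*, *Gimap6* and *Gimap9*, against 23.8%. In *Gimap1* and *Gimap9* the GGAAGT matches lie past the annotated start, and in *Gimap5* and *Gimap6* before it. The letters CAGGTG (E proteins), found in 20.2% of all promoters, occurred in *Gimap9*. The letters CTTTGAT (Tcf7 and Lef1) occurred in 0 of the 9 windows, against 3.73% of all promoters. The same held for AGATAA (read by Gata factors), found in 11.2% of all promoters, for AGGTGTG (T-box factors), found in 5.84%, and for the Irf element, found in 3.44%. A match describes letters in a window and does not show that a factor binds there.

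Genes of lymphocyte survival, a process on which several GIMAP proteins also act, were read from the same fit. Members of the BCL2 family, which set the threshold for cell death, and of the IL-7 receptor pathway, which keeps lymphocytes alive, made up 17 tested genes. Of these, 11 had a positive and 6 a negative log2 fold change, with a median of 0.61, or 0.35 without old replicate 2. edgeR called 0 of them, DESeq2 called 4 higher, and in 6, all higher in old ETP, the unadjusted p was under 0.05. Over all genes DESeq2 called 2.08% higher and 0.149% lower, and the unadjusted p was under 0.05 for 4.65% higher and 0.913% lower. *Bcl2a1d*, an inhibitor of cell death, was at 21.6 and 46.3 CPM in old ETP and at 2.38 and 1.43 CPM in young ETP, with a log2 fold change of 4.09 (SE 0.57, adjusted p by edgeR = 0.325). *Bcl2a1b*, a near-identical copy with which it may share fragments, had a log2 fold change of 4.00. Both are among the genes that DESeq2 called and those with an unadjusted p under 0.05 by edgeR. The list also holds *Bcl2a1a*, a further copy, so its counts take copies that may share fragments as separate genes. Both old libraries lay above both young ones in 8 genes of the list and below them in 2, against 16% and 15.7% of all genes. *Bcl2*, which blocks mitochondrial cell death and whose protein binds GIMAP5, was at 77.6 and 125 CPM in old ETP and at 47.0 and 81.1 CPM in young ETP. *Il7r*, the receptor for IL-7, was at 18.0 and 80.7 CPM in old ETP and at 30.3 and 82.1 CPM in young ETP. It differed by replicate number rather than by age. These last 2 genes were picked after their values were seen.

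Among 19 tested genes of T cell maturation and quiescence, 10 had a positive and 9 a negative log2 fold change, with a median of 0.07, or 0.15 without old replicate 2. edgeR called 0, an unadjusted p under 0.05 was found for 2, both higher in old ETP (4.65% of all genes), and DESeq2 called 1 higher (2.08% of all genes). *Slfn2*, needed for quiescence of T cells in mice, was at 16.9 and 53.6 CPM in old ETP and at 3.95 and 5.56 CPM in young ETP. *Ms4a4b*, a membrane protein of T cells, was at 10.4 and 28.6 CPM in old ETP and at 4.94 and 6.98 CPM in young ETP. In both genes old replicate 2 was the highest library, as in *Gimap3* and *Gimap4*. *Klf2*, a transcription factor of T cell quiescence picked after its values were seen, was at 98.9 and 16.1 CPM in old ETP and at 34.1 and 1.59 CPM in young ETP, with replicate 1 the higher of each age.

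Of 11 tested genes of the T cell receptor complex and its signalling, 7 had a positive and 4 a negative log2 fold change, with a median of 0.13, or 0.31 without old replicate 2. edgeR called 0, an unadjusted p under 0.05 was found for 4 higher and 1 lower in old ETP (4.65% and 0.913% of all genes), and DESeq2 called 1 higher (2.08% of all genes). *Cd3e*, a chain of that complex, was at 11.1 and 35.7 CPM in old ETP and at 3.31 and 2.86 CPM in young ETP. *Cd28*, the costimulatory receptor, was at 19.5 and 28.2 CPM in old ETP and at 8.83 and 2.86 CPM in young ETP. Neither gene overlapped between ages, and their log2 fold changes were 2.90 and 1.99, or 1.81 and 1.66 without old replicate 2.

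Other GTPase families gave a further comparison. Of 15 tested interferon-inducible GTPases, which act against viruses and intracellular microbes, 12 had a positive and 3 a negative log2 fold change, with a median of 0.19. Without old replicate 2 the median was -0.14. edgeR called 0, an unadjusted p under 0.05 was found for 2 (4.65% of all genes higher), and DESeq2 called 1 (2.08% higher). *Mx1*, an antiviral GTPase, was at 33.5 and 106 CPM in old ETP and at 13.3 and 21.3 CPM in young ETP, with a log2 fold change of 2.02, or 0.94 without old replicate 2. *Gbp8*, a guanylate-binding protein, was at 6.76 and 29.3 CPM in old ETP and at 2.79 and 6.03 CPM in young ETP, with a log2 fold change of 2.05, or 0.63 without old replicate 2. In both genes old replicate 1 lay nearer to the young libraries than to old replicate 2. Of 7 tested septins, filament-forming GTPases of the cytoskeleton, 3 had a positive and 4 a negative log2 fold change, with a median of -0.07, or 0.0010 without old replicate 2. edgeR called 0 and DESeq2 called 1 (2.08% of all genes higher), and the unadjusted p of 1 septin was under 0.05 (4.65% higher). *Sept3* was at 61.1 and 229 CPM in old ETP and at 7.20 and 20.5 CPM in young ETP. *Sept11* had a log2 fold change of 0.16.

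Markers of other cells moved between the same libraries. The 14 listed markers of conventional dendritic cells, which present antigen, summed to 6746 and 21537 CPM in old ETP and to 1378 and 1985 CPM in young ETP. All 13 that were tested had a positive log2 fold change, with a median of 3.63, or 2.29 without old replicate 2. DESeq2 called 11 of them higher, against 2.08% of all genes. *Cd74*, the invariant chain of MHC class II, was at 2823 and 8946 CPM in old ETP and at 227 and 518 CPM in young ETP. *H2-Aa*, a class II chain, was at 1189 and 3685 CPM in old ETP and at 100.1 and 220 CPM in young ETP. Old replicate 2 was the highest library in these genes, as in *Gimap3* and *Gimap4*.

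The 16 NK cell and innate lymphoid cell markers, of cells which use several Gimap genes when mature, summed to 462 and 784 CPM in old ETP and to 287 and 325 CPM in young ETP. Of 9 tested, 8 had a positive log2 fold change, with a median of 2.64, or 0.55 without old replicate 2. DESeq2 called 5 of them higher in old ETP, against 2.08% of all genes. In 5, all higher in old ETP, the unadjusted p by edgeR was under 0.05, against 4.65% of all genes. *Nkg7*, a protein of cytotoxic granules, was at 229 and 156 CPM in old ETP and at 219 and 212 CPM in young ETP, while *Id2*, an inhibitor of E proteins, was at 45.2 and 335 CPM in old ETP and at 17.4 and 44.0 CPM in young ETP. The 10 markers of T cells past the ETP stage summed to 66.8 and 129 CPM in old ETP and to 41.9 and 37.9 CPM in young ETP. Of 5 tested, 4 had a positive log2 fold change, with a median of 1.86, or 0.93 without old replicate 2. In 3, all higher in old ETP, the unadjusted p by edgeR was under 0.05. Over all genes this held for 4.65% higher and 0.913% lower. *Cd28*, described above, is the leading marker of this list by level, and *Ptcra*, the pre-TCR alpha chain, had 0 fragments in each library. *Cd5*, an inhibitory receptor of T cells, was at 16.2 and 14.0 CPM in old ETP and at 12.7 and 13.0 CPM in young ETP. The part of these markers in the levels of *Gimap3* and *Gimap4* was not tested. In bulk RNA, fewer cells of a type and less RNA per cell cannot be told apart.

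For endothelial and B lineage cells, which also use Gimap genes, the marker sums were not above the young ones in both old libraries. Only 2 of 10 endothelial and 1 of 10 B lineage markers passed the FPKM filter, so these sums rest on few genes. Endothelial markers summed to 185 and 144 CPM in old ETP and to 194 and 214 CPM in young ETP, and *Tie1* and *Cldn5* had 0 fragments in each library. Of these, *Egfl7*, a secreted endothelial protein, was at 17.7 and 17.9 CPM in old ETP and at 43.4 and 42.2 CPM in young ETP, and *Pecam1*, an adhesion molecule shared with blood cells, was at 161 and 119 CPM in old ETP and at 145 and 168 CPM in young ETP. B lineage markers summed to 38.4 and 52.9 CPM in old ETP and to 49.8 and 45.9 CPM in young ETP. Sums of plasmacytoid dendritic cell markers (641 and 795 CPM in old ETP, 680 and 1004 CPM in young ETP), of myeloid markers (1539 and 1029 CPM in old ETP, 2062 and 1398 CPM in young ETP) and of erythroid markers (23.3 and 17.2 CPM in old ETP, 20.6 and 22.2 CPM in young ETP) overlapped between ages. Markers of thymic epithelium summed to 2.80 and 14.8 CPM in old ETP and to 2.38 and 1.59 CPM in young ETP, with *Krt14* and *Foxn1* at 0 fragments in each library.

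**Figure D5:**
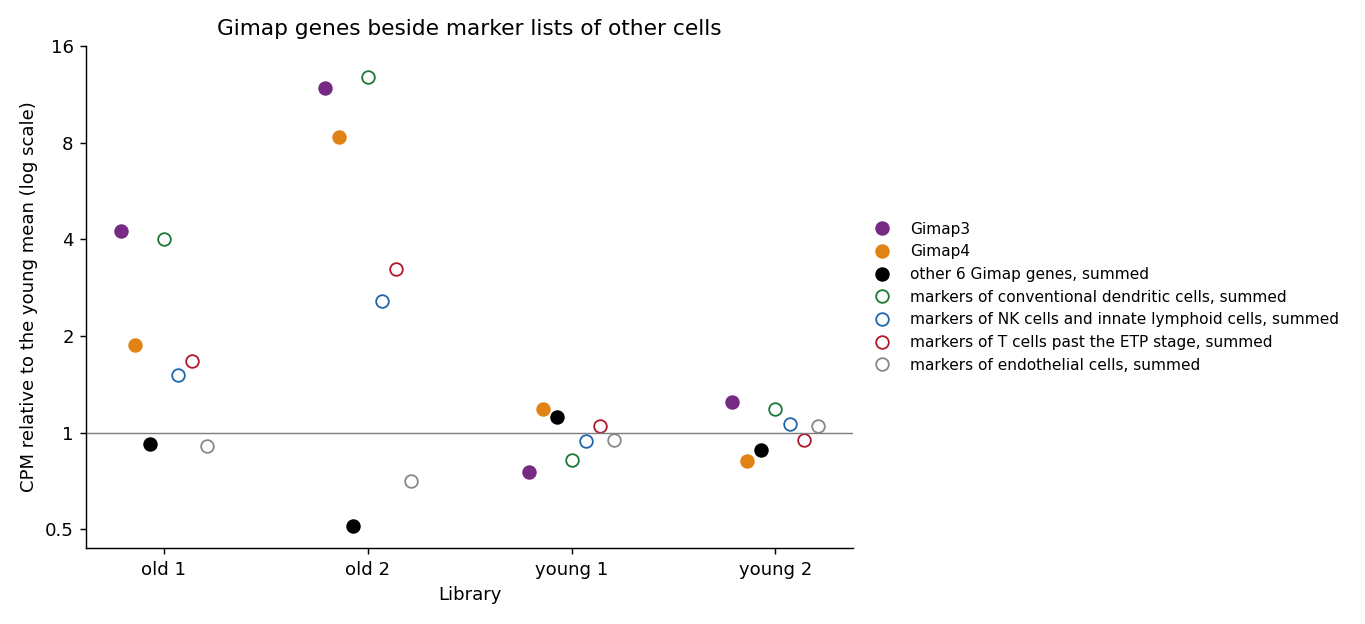
CPM relative to the young mean (log scale) in each library for *Gimap3*, *Gimap4*, the summed other 6 members and summed markers of other cells. In old replicate 2, where *Gimap3* was at 25.6 CPM and *Gimap4* at 38.9 CPM, the dendritic cell markers summed to 21537 CPM, while the other 6 members summed to 149.8 CPM, their lowest level.

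The genes with the most similar pattern over the 4 libraries were found by Euclidean distance between centered log2(CPM + 0.5) values, as a description without a test. Nearest to the summed family were *Gmfg*, *Aars2*, *Strap*, *Gtpbp4* and *Frmd8*, at distances from 0.037 to 0.049. *Gmfg*, an actin regulator of blood cells, was at 118 and 85.9 CPM in old ETP and at 138 and 105 CPM in young ETP. The same search for *Gimap3*, added after its values were seen, gave *Itgax*, *Slfn2*, *Irf8*, *Spint1* and *H2-DMb1* at 0.124 to 0.255. *Itgax*, the integrin chain CD11c of dendritic cells, was at 108 and 321 CPM in old ETP and at 25.5 and 39.5 CPM in young ETP. For *Gimap4* the nearest were *Nucb2*, *Arrdc4*, *Hfe*, *Cdon* and *Pglyrp1*, less close at 0.377 to 0.540. Within the family the closest pairs were *Gimap1* with *Gimap5* at 0.387 and *Gimap6* with *Gimap9* at 0.391. *Gimap3* and *Gimap4* were 1.13 apart, and *Gimap3* was 3.31 from its close relative in sequence, *Gimap5*.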

How the data were processed

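RNA from sorted ETP was made into cDNA libraries with the Nugen Ovation system and sequenced in pairs. Reads were aligned by the authors with STAR 2.3.0 to GRCm38 (mm10). Besides STAR, HTSeq 0.5.4p3, DESeq 1.12.1, Cuffdiff and Cufflinks 2.1.1 are listed in the submitters' processing notes. The deposited table holds estimated counts (fragments per gene), a scaled signal (the fragments multiplied by a factor for each library), and FPKM, the authors' values per transcript length. The handling of multiple alignments and the filters used are not given in the sources used here.

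Estimated counts were rounded, scaled by TMM and fitted in edgeR 4.0.16 (R 4.3.3) with age as the only term, for genes at or above FPKM 1 in 2 or more of the 4 libraries. Benjamini-Hochberg adjustment ran over all 10080 genes tested, with a threshold of 0.05. Between 95.7% and 96.1% of the estimated counts per library were whole numbers within 1e-06, including all those of the Gimap genes. Depth was 11816478 and 4839341 fragments in old and 16658864 and 6414915 in young ETP. A check for a library deposited in duplicate found none (chi-square per gene 83.4 between the old and 71.1 between the young libraries), which says nothing of where they came from.

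Alternatives were DESeq2 1.42.0, limma 3.58.1 on log2(FPKM + 1) or log2(FPKM + 0.1), other scalings and filters, a block for the replicate number, and each library left out in turn. The edgeR steps were tested on simulated data. The Gimap genes, the gene and marker lists and the comparisons were chosen with earlier results of these data known. Named from the lists were the 2 genes per pathway list with the smallest p and the 2 per marker list with the highest mean CPM, of which those that bear on Gimap genes are given, all genes beside the cluster that have a row, and the 5 genes nearest in pattern to the summed family. Positions come from GENCODE M21, upstream sequences from RefSeq GRCm38.p6. Proteins were not used here.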

Additional observations from a re-analysis of the deposited data

How the results depend on the processing

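The number of Gimap genes called was 0 of 8 by edgeR with TMM, and also with the other scalings, edgeR's own filter and limma on FPKM. It was 1 with DESeq2 (*Gimap3*) and 2 without a filter (*Gimap3* and *Gimap4*). Over all genes the calls were 0 by edgeR, 225 with DESeq2 and 508 without a filter. Leaving out single libraries gave 0 to 2 Gimap genes and 0 to 221 genes in all, with calls only without old replicate 1. For *Gimap3* the log2 fold change ranged from 1.30 to 3.65 over all alternatives (adjusted p from 1.4e-05 to 0.746), and for *Gimap4* from 0.86 to 3.08 (3.9e-04 to 1.00). The sign turned only when a library was left out, for *Gimap6* (0.063 without old replicate 2 and 0.012 without young replicate 1, from -1.15) and for *Gimap8* (0.051 without old replicate 1 and 0.33 without young replicate 2, from -1.19). The cause was not tested.

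With the replicate block, 777 genes were called and 2 Gimap genes, *Gimap3* (log2 fold change 2.84, adjusted p by edgeR 5.2e-04) and *Gimap4* (1.88, adjusted p 0.0435). The labels do not say that equal numbers mark a shared batch, and with 2 libraries per age the correlation of 0.734 between same-numbered deviations does not settle it. The median of the members stayed negative under all alternatives, from -0.73 to -0.20. On the FPKM scale of limma the median of all genes was -0.27. At 17 to 28 fragments in young ETP, the level of *Gimap3* there is limited by counting.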
